A study of Mus musculus with 28 samples.

Results

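OCA and INT-787 are modified bile acids that activate FXR, the nuclear receptor for bile acids, and the liver transcripts that moved with both compounds were examined here. The members were the 18 of 28 mice whose labels name OCA (9 mice) or INT-787 (9 mice), each at 30 mg/kg, and they were set against the 10 vehicle mice. The response of the drugs was taken as the mean of both drug group means, so that each compound counted equally. All mice were male ob/ob mice, which lack leptin and become obese. They arrived at 5 weeks of age and ate the AMLN diet, which produces steatohepatitis, during 14 weeks before dosing. Vehicle or either compound was then given by mouth each day over 2 weeks. Vehicle mice therefore carried the same leptin deficiency and had eaten the same diet. Messenger RNA was sequenced from whole liver, so that fewer cells of a type and less RNA per cell cannot be told apart.

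FXR binds DNA together with RXR, commonly at an inverted repeat of a 6-base element, and in the liver it raises the exporters that move bile acids out of hepatocytes. It also raises *Nr0b2* (SHP), a repressor that lowers the enzymes of bile acid synthesis. FXR activation in the intestine releases a hormone that acts on the liver to the same end. Through these routes the receptor keeps the bile acid content of the liver low, and it is also known to act on lipid, glucose, and amino acid metabolism.

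Of 12580 genes tested, 1886 (15%) differed between the pooled drugs and vehicle, by edgeR's quasi-likelihood test at a Benjamini-Hochberg adjusted p of at most 0.05. With the drugs, 1064 genes (8.46%) were higher and 822 (6.53%) were lower. Upper-quartile scaling moved this split to 813 higher and 1084 lower, and it moved the median log2 difference of all genes from 0.00277 to -0.0434. The changes were mostly small. Called genes moved by a median of 0.46 in either direction on the log2 scale, and 210 of them changed by at least 1 on the log2 scale (110 higher, 100 lower). The direction was the same with OCA and with INT-787 in 1872 of the 1886 genes, and differed in 14. Because the pooled value is the mean of both compounds and both were set against the same vehicle mice, this agreement in direction is partly built in. In 640 genes (430 higher, 210 lower) each compound passed the test on its own, and these moved by a median of 0.657 on the same scale.

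The other genes of shared direction rested on a single compound or on the pooling. INT-787 alone passed in 977 and OCA alone in 126. Over all tested genes, OCA changed 6.60% and INT-787 changed 19.6%, and 5.38% differed between the compounds. In 129 genes (53 higher, 76 lower) neither compound passed alone, and their median was 0.36. The standard error of the pooled value was smaller than that of either compound, with a median of 0.114 against 0.131 for OCA and 0.132 for INT-787. In 62 genes (0.493%) every drug mouse was above every vehicle mouse, and in 13 (0.103%) every drug mouse was below.

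The libraries held 1009593 to 18342272 counts in vehicle mice, 10990531 to 22421506 in OCA mice, and 12513715 to 22128216 in INT-787 mice. The lowest total belonged to vehicle replicate 6. In vehicle replicate 5 a larger share of counts (0.384%) fell on genes mostly overlapped by exons of the opposite strand, against 0.203% to 0.277% in the other mice. Without both mice the drugs raised 935 genes and lowered 667. *Alb*, the albumin gene and a defining hepatocyte transcript, was abundant in all mice, with at least 48544 CPM (counts scaled to a common library size), and all 8 hepatocyte markers examined were detected. All values below are CPM by group as lowest, median, and highest mouse, with log2 fold changes ± SE and adjusted p from the same edgeR test.

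Promoter sequence was examined because FXR acts at inverted repeats. The motif searched was AGGTCANTGACCT, in which N is any base and which reads the same on both strands, within 250 bases before to 50 bases after the start of each gene (RefSeq, GRCm38.p6). A window was found for 9982 of the 12580 tested genes. None held the motif without a mismatch, and 10 (0.1%) held it with 1 mismatch. Among the genes that each compound raised on its own, 4 of 338 (1.18%) held it with 1 mismatch, and among those each compound lowered, 0 of 157. Of the genes higher with the pooled drugs 4 of 836 (0.478%) held it so, and of those lower 0 of 628. With 2 mismatches allowed, the shares were 119 of 9982 (1.19%) of all windows, 16 of 836 (1.91%) of the genes higher with the pooled drugs, and 3 of 628 (0.478%) of those lower. With 3 mismatches allowed they were 11.7%, 17.8%, and 13.9%, so that the lower genes were then above all windows. The shares other than those for 2 mismatches were added after seeing the data. These shares are descriptions, and a match is not shown to be a binding site.

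The stretches around the matches in the 4 genes raised by each compound are shown in the direction of transcription, with the 13 bases aligned to the motif in capitals, 1 of which differs from it in each gene. *Abcb11* encodes the bile salt export pump, *Steap3* a ferric reductase, *Rdh9* a retinol dehydrogenase, and *Nbr1* an autophagy receptor. The stretches lie at chr2:69342632-69342714 (minus strand), chr1:120270329-120270411 (minus strand), chr10:127776291-127776373 (plus strand), and chr11:101552566-101552648 (plus strand), all upstream of the start.
Abcb11: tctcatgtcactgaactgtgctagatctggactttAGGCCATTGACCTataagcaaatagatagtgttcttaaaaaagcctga
Steap3: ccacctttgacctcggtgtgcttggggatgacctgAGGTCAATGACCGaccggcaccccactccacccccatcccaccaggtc
Rdh9: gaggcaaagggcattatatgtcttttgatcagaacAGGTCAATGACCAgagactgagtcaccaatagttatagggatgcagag
Nbr1: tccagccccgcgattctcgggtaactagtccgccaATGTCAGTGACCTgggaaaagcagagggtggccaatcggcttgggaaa

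The match begins 63 bases before the start in *Abcb11*, 106 in *Steap3*, 79 in *Rdh9*, and 53 in *Nbr1*. *Steap3* was 28.8, 41.0, and 51.4 CPM in the lowest, median, and highest vehicle mouse, against 56.8, 69.1, and 87.2 with OCA and 66.7, 89.7, and 121 with INT-787. Its pooled log2 fold change was 0.93 ± 0.11 (adjusted p = 1.04e-07), and every drug mouse was above every vehicle mouse. In *Rdh9* drug and vehicle mice did not overlap either, with 26.8 CPM in the highest vehicle mouse and 29.5 in the lowest drug mouse (0.91 ± 0.11, adjusted p = 3.73e-07). *Nbr1* rose less, by 0.42 ± 0.09 (adjusted p = 0.00194), with 15 of 18 drug mice above every vehicle mouse. These 3 genes were chosen by the motif after their values were seen. The other 6 genes with 1 mismatch were not called when pooled, although *Efemp2* was called lower with INT-787, and had pooled log2 values from -0.33 (*Efemp2*) to 0.30 (*Slco1b2*, a bile acid uptake carrier of the liver).

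Transcripts for the first step of bile acid synthesis and for the step that sets the cholic acid share fell. Of 16 tested genes of bile acid synthesis, 3 fell, 6 rose, and 7 were not called with the pooled drugs, against 8.46% higher and 6.53% lower of all tested genes, and the list had a median log2 fold change of -0.037. *Cyp7a1*, the rate-limiting enzyme, was 21.1, 57.6, and 114 CPM in the lowest, median, and highest vehicle mouse. It was 3.9, 9.76, and 17.3 CPM with OCA and 3.72, 13.7, and 22.1 CPM with INT-787, so that 17 of 18 drug mice lay below every vehicle mouse. The pooled log2 fold change was -2.41 ± 0.24, or 5.32-fold lower (adjusted p = 9.81e-09). *Cyp8b1*, which directs synthesis towards cholic acid, was 49.7, 131, and 175 CPM with vehicle, 1.05, 5.81, and 29.3 with OCA, and 0.423, 1.27, and 44.1 with INT-787. It was 18.4-fold lower with the pooled drugs (log2 -4.20 ± 0.51, adjusted p = 3.33e-07), and every drug mouse was below every vehicle mouse. Without INT-787 replicate 4, the mouse at 44.1 CPM, the pooled *Cyp8b1* log2 fold change was -5.17. The third to fall was *Cyp7b1*, an oxysterol hydroxylase of the alternative pathway (-0.51 ± 0.11, adjusted p = 0.00122).

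*Akr1d1*, which reduces the sterol ring on the way to bile acids, rose most in this list. It was 60.8, 83.7, and 115 CPM with vehicle, 127, 175, and 222 with OCA, and 237, 313, and 351 with INT-787, in 3 ranges that did not overlap. Its pooled log2 fold change was 1.45 ± 0.10 (adjusted p = 1.98e-12). *Cyp2c70*, which makes the muricholic acids of mice, rose by 0.74 ± 0.12, and *Cyp39a1*, another oxysterol hydroxylase, by 0.64 ± 0.10. The side chain enzymes *Amacr* (0.51 ± 0.08) and *Acox2* (0.23 ± 0.07) and the bile acid CoA ligase *Slc27a5* (0.44 ± 0.10) rose as well. *Cyp27a1*, the entry enzyme of the alternative pathway, was at -0.07 ± 0.07 and was not called when pooled. This pooled value averages compounds that differed, with INT-787 minus OCA at 0.42 on the log2 scale (adjusted p = 0.00322). The mean of OCA mice (239 CPM) lay below that of vehicle mice (291 CPM), and the mean of INT-787 mice (321 CPM) lay above it. *Csad*, which makes the precursor of the taurine joined to bile acids in mice, fell 4.85-fold (-2.28 ± 0.18, adjusted p = 5.95e-11). It was 275, 386, and 466 CPM with vehicle, 42.9, 84.8, and 135 with OCA, and 38.5, 52.2, and 183 with INT-787. The *Csad* gene has 278 exonic bases overlapped on the opposite strand.

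**Figure D1:**
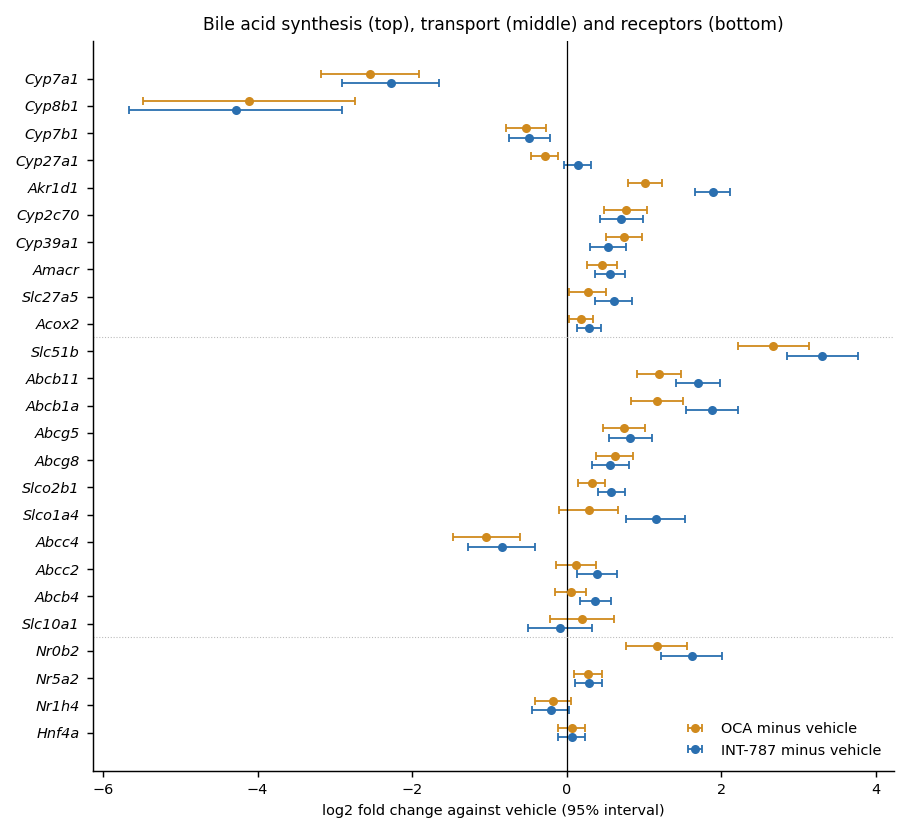
Log2 fold change against vehicle (x axis) with its 95% interval for 25 genes of bile acid synthesis, transport, and nuclear receptors, OCA in orange and INT-787 in blue. *Cyp7a1* and *Cyp8b1* lie far to the left with both compounds, *Slc51b*, *Abcb11*, and *Abcb1a* to the right, and the receptor gene *Nr1h4* spans 0 with both.

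The receptor that mediates repression rose, while the receptor itself was not called. *Nr0b2* (SHP) was 8.39, 19.7, and 34.9 CPM with vehicle, 32.2, 52.5, and 62.6 with OCA, and 41.1, 65.3, and 88.1 with INT-787. Its pooled level was 2.62-fold higher (log2 1.39 ± 0.18, adjusted p = 5.74e-07), and 16 of 18 drug mice were above every vehicle mouse. *Nr5a2* (LRH-1), a partner of SHP at bile acid synthesis genes, rose by 0.28 ± 0.08 (adjusted p = 0.00942). These were the 2 called of 12 nuclear receptor and hormone receptor genes, a share near the 15% called among all tested genes. *Nr1h4*, the FXR gene, was at -0.19 ± 0.10 (adjusted p = 0.195) and *Hnf4a* at 0.07 ± 0.07 (adjusted p = 0.623).

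Of 17 tested transporters of bile acids and biliary lipids, 8 rose, 2 fell, and 7 were not called, against 8.46% and 6.53% of all genes. *Slc51b*, a subunit of the basolateral bile acid exporter, was 1.15, 1.96, and 3.96 CPM with vehicle, 8.11, 9.79, and 24 with OCA, and 14.4, 21, and 31.1 with INT-787. It was 7.96-fold higher with the pooled drugs (log2 2.99 ± 0.21, adjusted p = 3.15e-12). *Abcb11*, the canalicular bile salt pump shown above, was 253, 324, and 506 CPM with vehicle, 615, 880, and 1088 with OCA, and 925, 1062, and 1586 with INT-787 (1.45 ± 0.13, adjusted p = 3.71e-10). *Abcb1a*, a P-glycoprotein, rose by 1.52 ± 0.15. In these 3 genes every drug mouse was above every vehicle mouse.

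The sterol exporters *Abcg5* (0.78 ± 0.12) and *Abcg8* (0.59 ± 0.10) rose, as did the uptake carriers *Slco2b1* (0.45 ± 0.08) and *Slco1a4* (0.72 ± 0.17), the latter not called with OCA alone. *Abcc4*, an exporter of the sinusoidal membrane, fell by 0.94 ± 0.18 on the log2 scale (adjusted p = 0.000263). *Slco1a1*, a male-biased uptake carrier, was called lower from low levels, with a mean of 1.15 CPM with vehicle, and it was not called with OCA alone. The main uptake carrier *Slc10a1* was at 0.05 ± 0.17, the canalicular exporter *Abcc2* at 0.26 ± 0.11, and the phospholipid flippase *Abcb4* at 0.21 ± 0.09, and none of these was called.

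Of 24 other genes described as FXR targets, 7 rose, 4 fell, and 13 were not called, against 8.46% and 6.53% of all tested genes. *Scarb1*, the HDL receptor, was 122, 159, and 178 CPM with vehicle, 277, 349, and 391 with OCA, and 292, 390, and 432 with INT-787 (1.17 ± 0.08, adjusted p = 7.96e-13). *Akr1b7*, an aldo-keto reductase, rose 9.34-fold from at most 1.10 CPM with vehicle, and *Slc22a7*, an organic anion transporter, 4.52-fold. *Slc2a4*, an insulin-responsive glucose transporter, rose by 1.37 ± 0.23 and *Osgin1*, an oxidative stress gene, by 0.95 ± 0.19. *Apoa5*, an apolipoprotein, rose by 0.37 ± 0.11 (adjusted p = 0.0179). *Sdc1*, a heparan sulfate proteoglycan, was called at 0.26 ± 0.09 (adjusted p = 0.0415), but the call was lost when any 1 of 14 mice was left out, and with DESeq2 size factors or upper-quartile scaling. *Vldlr* (-0.99 ± 0.21), *Pdk4* (-0.66 ± 0.17), *Il1rn* (-0.62 ± 0.14), and *Pltp* (-0.44 ± 0.12), which act in lipoprotein uptake, pyruvate use, cytokine signaling, and phospholipid transfer, fell.

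**Figure D2:**
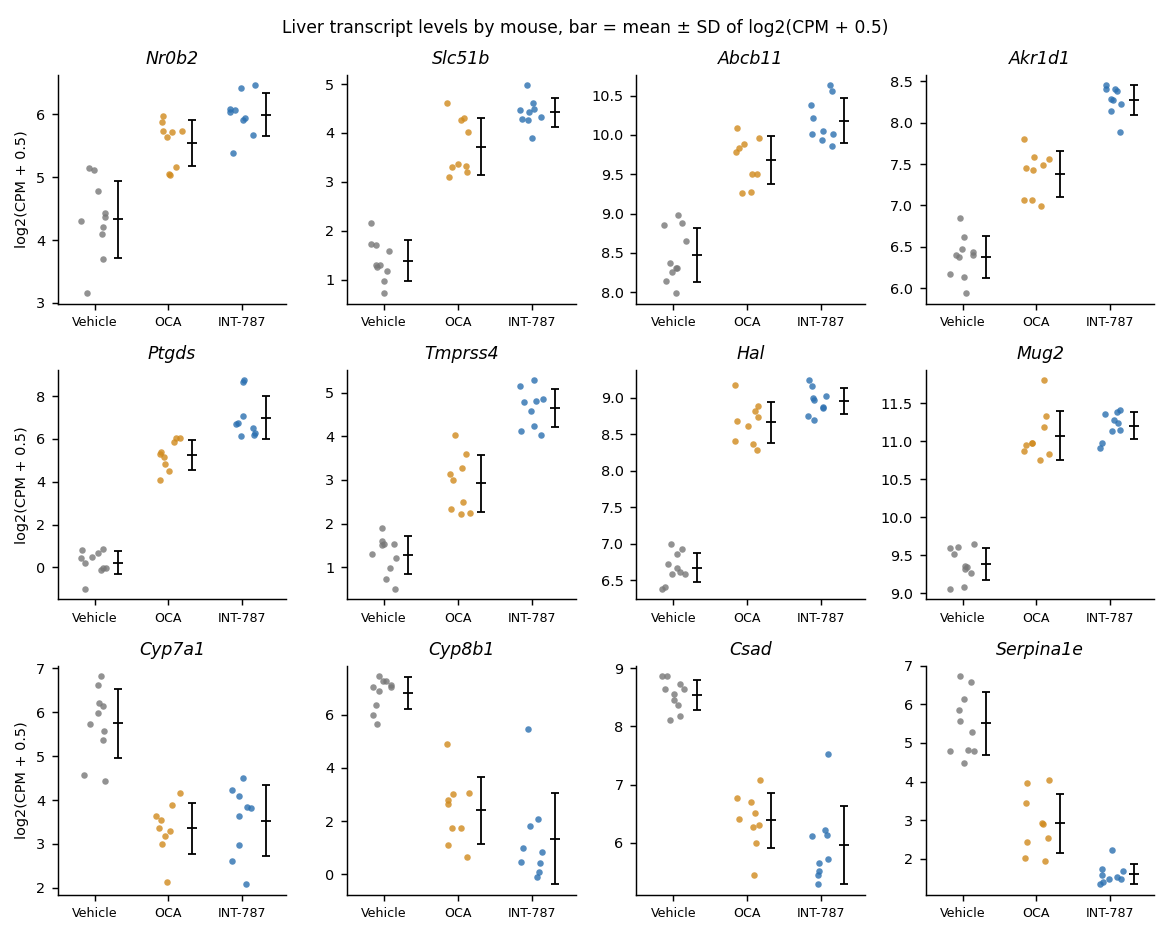
Level of 12 genes in each of the 28 mice, as log2(CPM + 0.5) on the y axis, for vehicle (grey, 10 mice), OCA (orange, 9 mice), and INT-787 (blue, 9 mice), with bars for the mean ± SD. *Hal* and *Mug2* show drug groups at like levels well above vehicle, *Ptgds* and *Tmprss4* sit higher with INT-787 than with OCA, and 1 INT-787 mouse has high *Cyp8b1* and *Csad*.

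The steepest rise was in a gene almost silent in vehicle mice. *Ptgds*, a prostaglandin D synthase, was 0.000, 0.737, and 1.31 CPM with vehicle, 16.4, 38.7, and 66.0 with OCA, and 70.3, 104, and 424 with INT-787. The pooled log2 fold change was 6.68 ± 0.43, or 102-fold (adjusted p = 5.89e-13). *Tmprss4*, a membrane serine protease, rose by 2.73 ± 0.23, *Dnah1*, a dynein heavy chain, by 2.67 ± 0.20, and *Lrtm2* by 2.25 ± 0.16. In *Ptgds*, *Tmprss4*, *Dnah1*, and *Lrtm2*, every drug mouse was above every vehicle mouse.

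Several of the genes that rose most lie beside *Ptgds* on chromosome 2. Within 250 kb of its start, 25 genes were tested with *Ptgds* included, of which 7 rose, 3 fell, and 15 were not called. Without *Ptgds*, *Paxx*, and *Tmem141*, which were named for the size of their rise, 4 of 22 (18.2%) rose and 3 (13.6%) fell, against 8.46% and 6.53% of all tested genes. *Paxx*, a DNA end-joining factor on the same strand, starts 8.95 kb beyond the *Ptgds* start in the direction of transcription. It was 3.03, 5.45, and 12 CPM with vehicle, 12.3, 22.8, and 29.2 with OCA, and 23.1, 29.4, and 49.7 with INT-787 (2.03 ± 0.18, adjusted p = 4.10e-10). *Tmem141*, a membrane protein gene 152 kb away, rose by 2.17 ± 0.14 and *Obp2a*, an odorant-binding lipocalin gene 230 kb away, by 4.10 ± 0.40, and neither overlapped between drug and vehicle mice. *Abca2* (0.78 ± 0.11), the complement gene *C8g* (0.71 ± 0.13), and *Bmyc* (0.65 ± 0.16) rose less. Genes between these, such as *Fbxw5* (0.15 ± 0.09) and *Traf2* (-0.04 ± 0.09), were not called, and *Dpp7* (-0.56 ± 0.09), *Uap1l1* (-0.55 ± 0.10), and *Tubb4b* (-0.37 ± 0.13) fell, the last called only when pooled (adjusted p = 0.0426) and overlapped on the opposite strand over 121 exonic bases. This window and its genes other than *Ptgds*, *Paxx*, and *Tmem141* were chosen after their values were seen.

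**Figure D3:**
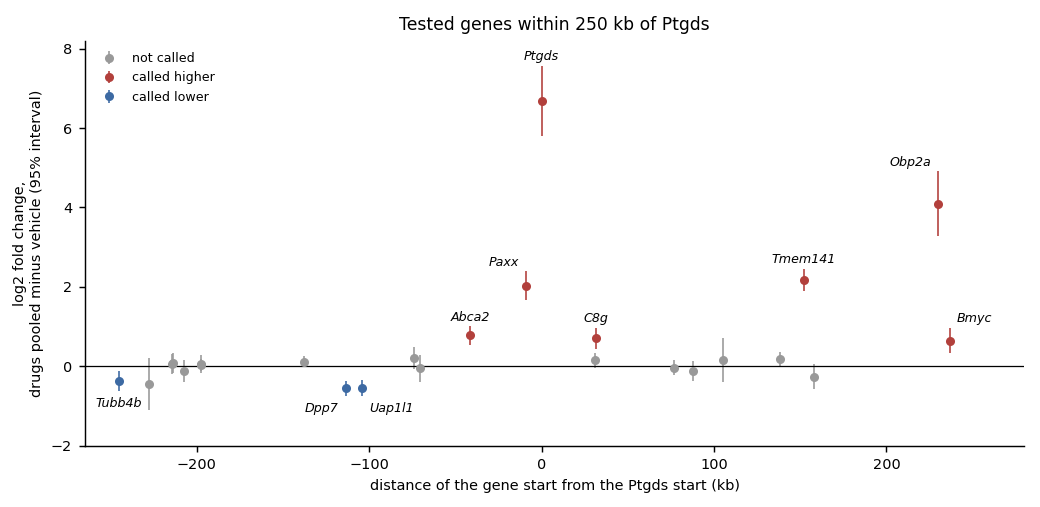
Pooled log2 fold change with its 95% interval (y axis) of the 25 tested genes within 250 kb of *Ptgds*, by the distance of each gene's start from that of *Ptgds* in kb (x axis). *Ptgds*, *Paxx*, *Tmem141*, and *Obp2a* stand at 2.03 or more, with genes near 0 between them.

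Amino acid breakdown and the urea cycle had the largest share of called members of any list examined. Of 25 tested genes, 20 rose and 0 fell, with a median log2 fold change of 0.621 against 0.00277 for all genes, of which 8.46% were higher. With OCA 14 rose and with INT-787 21, where 6.60% and 19.6% of all tested genes were called in either direction. The lowest p of all genes was that of *Hal*, which removes ammonia from histidine. *Hal* was 83.0, 99.1, and 127 CPM with vehicle, 311, 409, and 578 with OCA, and 414, 498, and 602 with INT-787 (2.14 ± 0.10, adjusted p = 2.01e-16). *Uroc1* (0.88 ± 0.09), *Amdhd1* (1.27 ± 0.08), and *Ftcd* (0.69 ± 0.07), the enzymes of the next steps of histidine breakdown, rose as well. *Ftcd* was outside the lists and was named after its value was seen.

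In the urea cycle, *Ass1*, which joins citrulline and aspartate, was 594, 700, and 872 CPM with vehicle, 1041, 1399, and 1975 with OCA, and 1334, 1887, and 2544 with INT-787 (1.22 ± 0.10, adjusted p = 1.83e-10). *Cps1*, the entry enzyme, rose by 0.94 ± 0.12. *Cth*, which makes cysteine by transsulfuration, rose by 1.43 ± 0.14, *Gls2*, the liver glutaminase, by 1.13 ± 0.13, and *Tat*, a tyrosine aminotransferase, by 0.68 ± 0.15. *Etnppl*, a lyase of phosphoethanolamine, rose by 1.92 ± 0.12 and *Mug2*, a protease inhibitor secreted by the liver, by 1.77 ± 0.11.

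**Figure D4:**
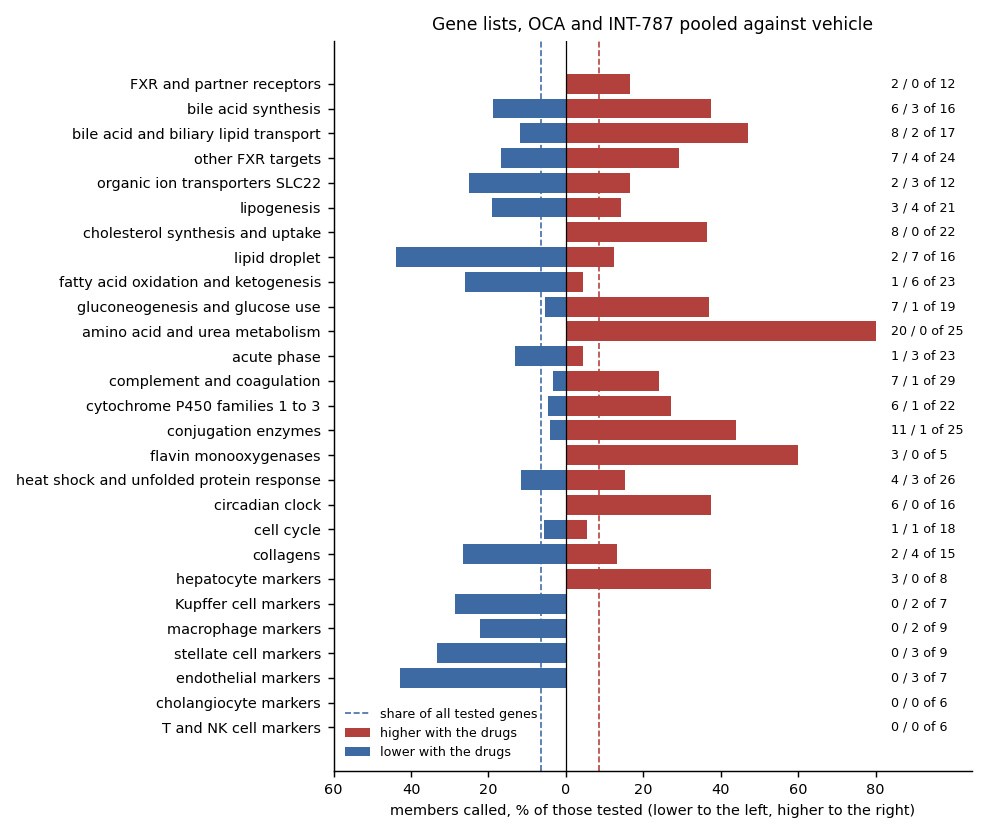
Share of the tested members of each gene list called higher (red, to the right) or lower (blue, to the left) with the pooled drugs, in percent, with counts of higher and lower at the right and dashed lines at the 8.46% and 6.53% of all tested genes. Amino acid and urea metabolism reaches 20 of 25 higher, and lipid droplet genes 7 of 16 lower.

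Among called genes of lipid droplets and of fatty acid oxidation more fell than rose, and those called in sterol synthesis were all higher. Of 16 tested lipid droplet genes, 7 fell, 2 rose, and 7 were not called, against 6.53% lower and 8.46% higher of all tested genes. *Plin4*, a droplet coat protein, was 57.8, 73.1, and 118 CPM with vehicle, 7.13, 26.6, and 54.1 with OCA, and 19.1, 33.3, and 66.5 with INT-787, or 2.44-fold lower (-1.29 ± 0.22, adjusted p = 6.26e-05). *Cidec*, which fuses droplets, fell by 0.81 ± 0.16 and the droplet-forming genes *Fitm1* and *Fitm2* by 0.89 ± 0.17 and 0.64 ± 0.12 on the log2 scale. In lipogenesis 4 of 21 fell, 3 rose, and 14 were not called, with the share higher near the 8.46% of all tested genes. *Me1*, which supplies NADPH, fell by 0.83 ± 0.12, the desaturase *Scd1* by 0.69 ± 0.17, and the elongase *Elovl6* by 0.39 ± 0.11, while the regulator *Srebf1* (0.36 ± 0.10) and the citrate lyase *Acly* (0.61 ± 0.18) rose. *Acly* lost its call without vehicle replicates 5 and 6.

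Of 23 genes of fatty acid oxidation, 6 fell, 1 rose, and 16 were not called, against 6.53% and 8.46% of all tested genes. The peroxisomal thiolase *Acaa1b* fell by 0.87 ± 0.11 on the log2 scale, the mitochondrial *Hadhb* by 0.45 ± 0.07, and the carnitine carrier *Slc25a20* by 0.36 ± 0.10. Of 22 genes of cholesterol synthesis and uptake, 8 rose, 0 fell, and 14 were not called. With OCA 4 rose and with INT-787 15, where 6.60% and 19.6% of all tested genes were called in either direction. Between the compounds 10 of the 22 differed, against 5.38% of all tested genes. *Insig1* (0.78 ± 0.15), which restrains sterol regulation, *Msmo1* (0.71 ± 0.10), a sterol demethylase, and *Fdft1* (0.60 ± 0.10) rose. *Fdft1* has 774 exonic bases overlapped on the opposite strand.

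In glucose metabolism 7 of 19 genes rose and 1 fell, against 8.46% and 6.53% of all tested genes. *Slc2a2*, the hepatocyte glucose transporter GLUT2, was 438, 578, and 675 CPM with vehicle, 697, 920, and 1157 with OCA, and 954, 1068, and 1380 with INT-787 (0.81 ± 0.08, adjusted p = 9.80e-09). The glucose 6-phosphate carrier *Slc37a4* rose by 0.82 ± 0.15 and the glucokinase regulator *Gckr* by 0.44 ± 0.09. *G6pc*, the last enzyme of glucose release, fell by 0.76 ± 0.21 on the log2 scale. Of 16 clock genes, 6 rose and 0 fell, among them *Per2* (0.79 ± 0.19) and *Tef* (0.65 ± 0.16).

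Of 25 tested conjugation enzymes, 11 rose and 1 fell, against 8.46% and 6.53% of all tested genes, the background for the P450 and SLC22 counts as well. With OCA 4 rose and 2 fell, and with INT-787 16 rose and 0 fell, where 6.60% and 19.6% of all tested genes were called. Between the compounds 14 of the 25 differed, against 5.38% of all tested genes. *Gsta4*, a glutathione transferase, was 70.2, 95.3, and 150 CPM with vehicle, 177, 237, and 406 with OCA, and 272, 388, and 449 with INT-787 (1.57 ± 0.13, adjusted p = 2.02e-10). *Gsta2* (1.62 ± 0.16), *Gstm3* (1.26 ± 0.17), and *Ugt1a9* (0.98 ± 0.16) rose in the pooled comparison, *Ugt1a9* with INT-787 (1.63) and not with OCA (0.32). Among cytochrome P450 families 1 to 3, 6 of 22 rose and 1 fell, including *Cyp2c39* (1.22 ± 0.18), *Cyp3a25* (0.92 ± 0.11), and *Cyp2f2* (0.84 ± 0.19). *Cyp3a59* rose by 1.83 ± 0.16. Among flavin monooxygenases *Fmo5* (0.71 ± 0.10) and *Fmo2* (0.77 ± 0.24) rose, and *Fmo2* lost its call without vehicle replicates 5 and 6 together or without any of vehicle replicates 5, 7, 8, or 10. Of 12 organic ion transporters of the SLC22 family 2 rose, 3 fell, and 7 were not called, and *Slc22a15* fell by 0.37 ± 0.09. Counts of near-identical copies, as in the *Gsta*, *Gstm*, *Ugt1a*, *Cyp2c*, *Cyp3a*, *Cyp2a*, *Saa*, *Mug*, and *Serpina1* families, may have been split or shared among paralogs.

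*Serpina1e* and *Dio1* were among the genes that fell most. *Serpina1e*, of the antitrypsin family, was 21.9, 42.7, and 106 CPM with vehicle, 3.35, 7.03, and 16 with OCA, and 2.03, 2.36, and 4.19 with INT-787, or 11.5-fold lower (-3.53 ± 0.25, adjusted p = 3.15e-12). *Dio1*, which activates thyroid hormone, was 69.7, 116, and 181 CPM with vehicle, 26.7, 38.9, and 52.0 with OCA, and 16.5, 18.4, and 33.3 with INT-787 (-1.99 ± 0.13, adjusted p = 4.64e-13). *Clstn3* (-1.63 ± 0.17), *Gnai1*, an inhibitory G protein subunit (-1.50 ± 0.12), *Rarres1* (-1.43 ± 0.13), and *Paqr9* (-1.16 ± 0.13) fell without overlap between drug and vehicle mice. *Nt5e*, the ectonucleotidase CD73, fell by 1.42 ± 0.22. *Hspb1*, a small heat shock protein, fell by 1.24 ± 0.11 and *Hspa1b* by 1.16 ± 0.19, while *Asns* (1.05 ± 0.24) and *Herpud1* (0.49 ± 0.11) of the same list of 26 rose. In that list 4 rose, 3 fell, and 19 were not called, against 8.46% and 6.53% of all tested genes. *Cyp2a4* (-1.78 ± 0.33) and the metallothionein *Mt2* (-1.67 ± 0.28) were called lower when pooled and with INT-787, but not with OCA. The median *Mt2* level in OCA mice (65.5 CPM) was near that in vehicle mice (57.4 CPM), against 15.4 CPM in INT-787 mice, and INT-787 minus OCA was -2.10 (adjusted p = 0.000351). *Cyp4a12a* (-1.63 ± 0.49) was called with OCA alone, and lost its pooled call without vehicle replicates 5 and 6.

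Called markers of endothelial, stellate, Kupffer, and macrophage cells were all lower when pooled, and in these lists none was called with OCA alone. Of all tested genes 6.53% were lower when pooled. Of 7 endothelial markers 3 fell, among them *Pecam1* (-0.34 ± 0.10), and the summed level of the list was 197 to 396 CPM with vehicle, 157 to 275 with OCA, and 136 to 293 with INT-787. Of 9 stellate cell markers 3 fell (639.5 to 1032 CPM with vehicle, 572.6 to 1127 with OCA, 536 to 902 with INT-787), among them *Lrat*, of retinoid storage (-0.45 ± 0.12). Of 7 Kupffer cell markers 2 fell (371 to 614, 306 to 699, and 246 to 437 CPM), including *Folr2* (-0.62 ± 0.16). Of 9 macrophage markers 2 fell (893 to 1623, 746 to 2616, and 518 to 1108 CPM), *Ccr2* (-0.70 ± 0.15) and *Cd68* (-0.39 ± 0.12). The macrophage list moved apart between the compounds, with a median log2 difference from vehicle of 0.226 with OCA and -0.627 with INT-787, and 7 of the 9 differed between them. With INT-787 alone 6 of the 9 fell, and with OCA 0. Of all tested genes, 19.6% were called with INT-787 and 6.60% with OCA in either direction, and 5.38% differed between the compounds. *Cd68* and *Des* lost their calls when vehicle replicates 5 and 6 were left out.

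Of 8 hepatocyte markers 3 rose, against 8.46% of all tested genes, *Alb* by 0.54 ± 0.12, *Tat*, and *Cps1*, and the summed level was 90111 to 137993 CPM with vehicle, 122658 to 187699 with OCA, and 113178 to 156828 with INT-787. Of the 6 cholangiocyte and 6 T and NK cell markers, none was called when pooled (513 to 972, 442 to 1755, and 313 to 574 CPM, and 6.14 to 18.3, 5.08 to 17.2, and 3.62 to 15.9 CPM). *Spp1*, in both the cholangiocyte and macrophage lists, was alone at 428 to 727, 396 to 1440, and 274 to 465 CPM. This gene made up most of the cholangiocyte sum and a large part of the macrophage sum. Neutrophil markers were 0 of 3 called and B cell markers 1 of 2, lower, each list summing to under 12 CPM in all mice. Of the nearby tissue markers, *Prss1*, *Pnlip*, and *Adipoq* were at 0 in every mouse, 1 of the 2 tested fell, and the sum was 11.8 to 22.8, 8.62 to 22.9, and 7.99 to 13.9 CPM. The part of these shifts in the gene changes above was not tested.

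In several lists the compounds had unequal or opposite calls. Over all tested genes 6.60% were called with OCA and 19.6% with INT-787 in either direction, and 5.38% differed between the compounds. Of 23 acute phase genes, 3 fell and 1 rose with the pooled drugs, a share called of 17.4% that is near the 15% of all tested genes, but 6 rose with OCA, 10 fell with INT-787, and 14 differed between the compounds. Of 15 collagens, 4 fell and 2 rose in the pooled comparison, with 0 called for OCA and 11 lower and 2 higher for INT-787 (19.6% of all tested genes), and 10 differed (5.38% of all). *Col3a1* (-0.58 ± 0.18 pooled) was at 0.12 with OCA and -1.28 with INT-787, and its pooled call was lost without vehicle replicate 1. Complement and coagulation rose in 7 of 29 genes and fell in 1 when pooled (7 and 0 with OCA, 7 and 6 with INT-787), and 7 of the 29 differed. Those that rose included *F7* (0.60 ± 0.07), a clotting protease above every vehicle mouse in all drug mice, and *Klkb1* (0.73 ± 0.11). Of 18 cell cycle genes 1 rose, *Ccnd1*, cyclin D1 (1.23 ± 0.12), and 1 fell, *Ccna2* (-0.63 ± 0.22), shares no larger than the 8.46% and 6.53% of all tested genes. With OCA 2 rose and 0 fell, and with INT-787 1 rose and 4 fell. The *Ccna2* call (adjusted p = 0.0455) was lost when any of 18 single mice was left out, with no filter, and with the drug mice as 1 group. *Ccnd1* has 1100 exonic bases overlapped on the opposite strand.

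The compounds were compared directly at the same dose and time, as 1 pair. Of the 1872 genes of shared direction, 275 also differed between the compounds, with INT-787 further from vehicle in 255 and OCA in 20. Among the 640 genes changed by each compound, 84 differed, and INT-787 had the larger estimate in 455. *Ptgds* was higher with INT-787 by 1.99 on the log2 scale (95% interval 1.32 to 2.66, adjusted p = 0.000253) and *Tmprss4* by 1.70 (1.25 to 2.16, adjusted p = 8.21e-06). *Akr1b7* (1.28, 0.66 to 1.89), *Akr1d1* (0.88, 0.65 to 1.11), *Abcb1a* (0.71, 0.38 to 1.05), and *Abcb11* (0.50, 0.21 to 0.79) were also higher with INT-787, the last losing its call when any of 6 single mice was left out. *Serpina1e* was lower with INT-787 by 1.65 (95% interval of INT-787 minus OCA -2.33 to -0.96) and *Dio1* by 0.86 (-1.17 to -0.54). *Hspb1* fell further with OCA, by 0.69 (0.40 to 0.97).

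In 355 of the 640 genes the 95% interval of INT-787 minus OCA lay within 0.5 of 0 on the log2 scale, as it did in 7804 of all 12580 tested genes. These bounded genes included *Mug2* (0.10, -0.14 to 0.35), *Hal* (0.28, 0.06 to 0.49), *Scarb1* (0.16, -0.02 to 0.33), *Clstn3* (-0.01, -0.45 to 0.42), *Rarres1* (-0.15, -0.49 to 0.18), *Dnph1* (0.14, -0.16 to 0.43), *Paqr9* (-0.14, -0.45 to 0.18), and *Cyp7b1* (0.05, -0.22 to 0.31). The repression of *Cyp7a1* was not shown to differ, with an interval of -0.36 to 0.90, and that of *Cyp8b1* with an interval of -1.52 to 1.18. The *Cyp8b1* interval was widened by INT-787 replicate 4, with 44.1 CPM. Without that mouse *Cyp8b1* was lower with INT-787 than with OCA by 2.11 on the log2 scale (adjusted p = 0.0125), and *Csad* by 0.65 (adjusted p = 0.0189). *Slc51b* (0.63, 0.23 to 1.03, adjusted p = 0.0517) and *Nr0b2* (0.45, 0.06 to 0.84, adjusted p = 0.184) missed the threshold with intervals that reach beyond 0.5. The *Slc51b* difference passed with DESeq2 (adjusted p = 0.0299) and with limma-voom (adjusted p = 0.0145).

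**Figure D5:**
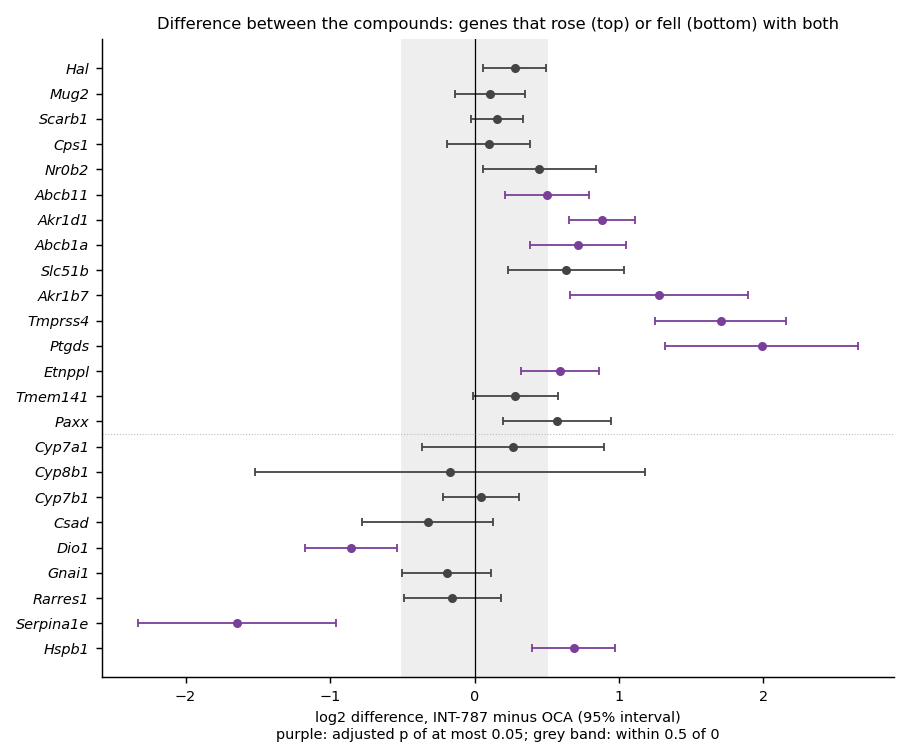
Log2 difference between INT-787 and OCA with its 95% interval (x axis) for 24 genes changed by both compounds, purple where the adjusted p was at most 0.05, with a grey band within 0.5 of 0. *Mug2*, *Scarb1*, and *Cyp7b1* stay inside the band, whereas *Ptgds* (1.99) and *Tmprss4* (1.70) lie far to the right and *Serpina1e* (-1.65) to the left.

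A pooled call did not always stand for both compounds. Examples among genes named above are *Slc27a5*, *Acox2*, *Pltp*, *Il1rn*, *Hspa1b*, *Scd1*, *Acly*, *G6pc*, *Fmo2*, *Cyp2c39*, and *Per2*, which passed on their own with INT-787 and not with OCA. *Pdk4*, *Slc22a15*, *Asns*, *Elovl6*, and *Srebf1* passed with OCA and not with INT-787. These lists are not complete. *Sema3b*, a secreted guidance protein, was called in the pooled comparison (0.55 ± 0.10), but was 7.58, 8.61, and 11.9 CPM with vehicle, 4.86, 6.65, and 10.3 with OCA, and 17.9, 22.5, and 29.4 with INT-787. *Acad12* (INT-787 minus OCA 1.10) and *Cyp2c38* (1.20) were likewise higher with INT-787. In the other direction INT-787 minus OCA was -2.34 for *Fgl1*, -1.85 for *Timp1*, -1.82 for *Saa2*, -2.58 for *Sprr1a*, and -1.44 for *Cxcl14*, and none of these 5 was called with OCA alone. Mean CPM with OCA was above vehicle for *Timp1* (8.42 against 7.88), *Saa2* (174 against 158), *Sprr1a* (37 against 26.2), and *Cxcl14* (17.7 against 14.9). For *Fgl1* the OCA mean was below vehicle (291 against 351). *Itih4* and *Serpina3n*, both secreted acute phase proteins, were the 2 genes called with each compound in opposite directions, and neither was called when pooled. *Itih4* was 2200, 2674, and 3367 CPM with vehicle, 3212, 3853, and 4660 with OCA, and 1683, 2264, and 2571 with INT-787, a rise of 0.50 and a fall of 0.35 on the log2 scale. *Serpina3n* rose by 0.33 with OCA and fell by 0.33 with INT-787.

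Of the 129 genes called only when the compounds were pooled, 4 of the 6 named for their size had extreme counts in vehicle replicate 5. *Nop9*, a nucleolar protein gene, was at -1.15 ± 0.34 (adjusted p = 0.0202), but vehicle replicate 5 had 263 CPM and the other vehicle mice 12.9 to 21.4. Without that mouse it was at 0.06 (adjusted p = 0.653), and *Emc8* at -0.09 in place of -0.80. *Emc8* (178 CPM against 20.9 to 31.3), *Cdk4* (236 against 33.5 to 59.4), and *Tsr1* (65.3 against 8.09 to 16.2) had the same pattern, and all 4 have exonic bases overlapped on the opposite strand. *Mmp11*, a metalloproteinase called with each compound (-3.35 ± 0.63 pooled), had 123 CPM in that mouse and 1.15 to 3.68 in the others, and was at -0.18 without it (adjusted p = 0.653). *Morc4* (-0.54 ± 0.18) and the chemokine *Cxcl9* (-0.70 ± 0.24), with no such overlap, were also called only when pooled. Over all genes with no opposite-strand overlap, a restriction chosen after seeing the data, 924 were higher and 674 lower with the pooled drugs.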

How the data were processed

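Liver messenger RNA of 28 mice was sequenced by the authors from TruSeq stranded libraries and aligned to GRCm38 with STAR. They deposited raw counts per Ensembl gene, and the counting program and its use of strand are not given in the sources used here. Groups came from the sample labels, and separate mice are the replicates. Of 21935 genes, 12580 passed filterByExpr and were tested with edgeR 4.0.16 (R 4.3.3, TMM, quasi-likelihood test, Benjamini-Hochberg adjustment over all tested genes) in 1 model of 3 groups, with contrasts for the pooled drugs, each drug, and INT-787 minus OCA. The authors used DESeq2, which was run here as an alternative (1.42.0), as was limma-voom (3.58.1). CPM use TMM-scaled totals, except sums of marker lists, which use library totals. Low genes are least precise in vehicle replicate 6, with 1009593 counts.

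Named genes were the 15 highest rises and 15 deepest falls, the 10 lowest p values, 8 bounded genes, 5 each way that differed between drugs, 6 called only when pooled, genes opposite between drugs, any member of 4 core lists, and up to 5 per other list, with a mean of at least 5 CPM outside the lists and lowest p values, and for rises and falls the same sign in replicates 1 to 5 and in later ones. Exceptions are marked in the text. The text takes part of these, and some are not reported here. The compounds, lists (30, with 451 genes), and tests were chosen with earlier results of these data known. Test scripts were tested on simulated data. Alternatives were other scalings, filters, tools, and thresholds, number factors, and each mouse left out.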

Additional observations from a re-analysis of the deposited data

Results flagged for a closer look

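Results of 41 genes were screened for a mouse far from the rest of its group on the log2(CPM + 0.5) scale and for a difference between the compounds. A gap flagged 10 of 123 groups (8.13%), and chance alone flags about 1 in 20 groups. *Nop9* and *Mmp11* were shown above for the counts of vehicle replicate 5, so their flags were known beforehand. INT-787 replicate 4 was the highest of its group in *Cyp8b1* (44.1 CPM), *Csad* (183 CPM), and *Serpina1e* (4.19 CPM). INT-787 replicate 5 was lowest for *Hspb1* (14.1 CPM). Among vehicle mice, replicate 5 was highest for *Nop9* (263 CPM) and *Mmp11* (123 CPM), replicate 6 was lowest for *Ptgds* (0 CPM) and highest for *Sema3b* (12 CPM), replicate 2 was lowest for *Scarb1* (122 CPM), and replicate 9 for *Slc2a2* (438 CPM). Vehicle replicate 6 had only 1009593 counts, so its values of these low genes rest on few reads.

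The compounds differed in 19 of the 41 genes by edgeR's test of INT-787 minus OCA, against 5.38% of all tested genes. Some of the 41, among them *Sema3b*, *Saa2*, *Itih4*, and *Serpina3n*, were named for this difference, so the count is partly fixed by that choice. On the log2 scale INT-787 was higher in *Ptgds* (1.99), *Tmprss4* (1.7), *Sema3b* (1.66), *Akr1b7* (1.28), *Akr1d1* (0.879), *Abcb1a* (0.715), *Hspb1* (0.686), *Etnppl* (0.593), *Cth* (0.588), *Gsta4* (0.535), *Abcb11* (0.502), *Amdhd1* (0.495), *Ass1* (0.407), and *Slc2a2* (0.32). It was lower in *Saa2* (-1.82), *Serpina1e* (-1.65), *Dio1* (-0.855), *Itih4* (-0.85), and *Serpina3n* (-0.656). Some of these calls lie near the threshold. When 1 mouse was left out the call was lost for *Slc2a2* in 10 cases, for *Abcb11* in 6, and for *Ass1* and *Gsta4* in 5 each, while over all alternatives the differences stayed at 0.279 to 0.371, 0.440 to 0.558, 0.346 to 0.485, and 0.485 to 0.697. *Slc2a2* also lost it with no filter and *Ass1* with upper-quartile scaling.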

How the results depend on the processing

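The counts of genes higher and lower, of shared direction, called with each drug, and different between the drugs stayed within 1.5 times their values under other scalings, filters, tools, and number factors. The thresholds moved all 5. At an adjusted p of at most 0.01 they were 633 higher, 394 lower, 1022 of shared direction, 350 with each drug, and 247 between the drugs. For genes moving by at least 1 on the log2 scale they were 110, 100, 210, 114, and 134. Requiring both drugs to pass alone left 640 genes of shared direction, and an unadjusted p of at most 0.05 with each drug left 1417.

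Leaving out 1 mouse gave 921 to 1239 genes higher, 659 to 1166 lower, 1573 to 2395 of shared direction, 535 to 763 with each drug, and 443 to 888 between the drugs. The 443 came without OCA replicate 8, which also gave the highest counts against vehicle, and the cause was not tested. *Nop9* (-1.15) turned to 0.0367 with DESeq2 and to 0.0376 without vehicle replicates 5 and 6. With 1 mouse left out it ranged from -1.247 to 0.06248, the latter without vehicle replicate 5. Treating the drug mice as 1 group ended the pooled calls of some genes on which the drugs differ, among them *Fgl1*, *Saa2*, *Timp1*, and *Col3a1*.

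Replicate numbers were not taken to pair the mice, since no label ties them and only 11 of 27 pairs had correlated deviations over 0.1 (-0.244 to 0.429). Compared only with mice of the other groups, 9 of the 28 mice correlated most with a mouse of their own number, a hint of shared structure. The number given by chance was not computed. Sets of neighbouring sample numbers gave -0.196 to 0.429, a median of 0.105, and 13 of 25 pairs over 0.1. With the replicate number as a block, 1060 genes were higher, 788 lower, 1833 of shared direction, 652 called with each drug, and 677 different. Among genes named in the text the block ended the pooled calls of *Cyp4a12a*, *Mmp11*, *Fmo2*, *Cxcl14*, *Des*, *Cd68*, *Nop9*, *Emc8*, *Cxcl9*, and *Cdk4*, and *Slc51b* (0.702, adjusted p = 0.00761), *Abcb4*, and *Pdk4* then differed between the drugs. Depth limits genes below 5 CPM most, and with 9 or 10 mice per group the median 95% interval of the difference between the drugs was 0.541 wide on the log2 scale.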
